A study of Mus musculus with 4 samples.

Results

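The genes described here are *6330403K07Rik*, *Elovl4*, *Adamtsl1*, *Fibin*, *Rnaset2a* and *Rnaset2b*, 6 of the 27998 genes counted in single satellite cells of mouse hindlimb muscle. They were selected on measured values: their UMI counts (unique molecular identifiers, 1 per captured transcript) stood among the furthest apart between mice of the DBA and the B10 background, in these same libraries. The background differences given below are therefore a description of that choice and carry no test. Cells were sorted as ITGA7+/VCAM+/Lin- and measured with 10X Genomics 3′ chemistry, with 2 mice pooled into a single library for each strain. B10 (C57/Bl10ScsSn, 15 weeks by the labels) and DBA (DBA/2, 13 weeks) were the healthy strains. *mdx* (C57BL/10ScSn-Dmdmdx, 11 weeks) and D2-*mdx* (D2.B10-Dmdmdx, 14 weeks) carry the *Dmd* mdx allele, a loss of dystrophin, on the respective backgrounds, and all mice were male per the study's methods. With 1 library per strain there is no replicate, so no test between strains was possible, and strain, age and library cannot be told apart. Intervals are exact 95% intervals and cover counting error only.

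Inbred mouse strains differ at many sites of the genome, and some of these differences set how strongly a nearby gene is transcribed, or whether a gene copy exists at all. *Elovl4* encodes an elongase of the endoplasmic reticulum that builds very long chain fatty acids. *Adamtsl1* encodes a secreted glycoprotein of the ADAMTS-like family, which resembles the ADAMTS proteases but lacks the protease domain and resides in the extracellular matrix. *Fibin*, the fin bud initiation factor homolog, encodes a small secreted protein known from limb bud development. *Rnaset2a* and *Rnaset2b* are near-identical mouse genes of the T2 ribonucleases, acid enzymes that degrade RNA in lysosomes. *6330403K07Rik* carries a RIKEN clone name, and no role is given for it here.

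The libraries held 3539 to 9931 barcodes, of which 3279 to 6313 were kept as cells with 37016795 to 52742197 UMIs in total. B10 stood apart, with 4739 of its 9931 barcodes below the limit of 1000 genes and 4143 above that of 8% mitochondrial UMIs, against 11 to 21 and 30 to 272 barcodes in the other libraries. Of the kept cells, 4418 (B10), 4820 (*mdx*), 2700 (DBA) and 4184 (D2-*mdx*) fell in myogenic clusters, that is, clusters of muscle stem cells (MuSC-like), cycling, differentiating myocyte-like and immunomyoblast-like cells. The differentiating myocyte-like cluster scored 2.23 on myocyte markers and 2.05 on markers of the separate DMD-enriched cluster that the study described. Its name therefore does not set these kinds of cells apart, here or below. It held 74 cells of B10, 1156 of *mdx*, 101 of DBA and 794 of D2-*mdx*. *Pax7*, which marks satellite cells, was at 907, 424, 695 and 426 CPM (counts per 1000000 UMIs) over these cells, in the order B10, *mdx*, DBA and D2-*mdx*. The label check on *Dmd* gave 324, 120, 287 and 94.5 CPM in the same order, lower in both libraries with the mdx allele. The libraries differed in the makeup of the myogenic cells: 4130 of 4418 were MuSC-like in B10 and 2515 of 2700 in DBA, against 3176 of 4820 in *mdx* and 2860 of 4184 in D2-*mdx*. Marker genes of other cell types within the myogenic cells also differed between libraries, with a summed level of the 6 white blood cell markers of 1.23, 22.5, 6.94 and 94.6 CPM and of the 5 erythrocyte markers of 276, 461, 299 and 927 CPM. Of the white blood cell markers, 1 was at 0 in B10. Their part in the differences between libraries was not tested. Pairs of libraries shared 5 to 16 cell barcodes, at most 0.236% of the smaller library.

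The *Rnaset2* copies match closely in the reference genome. Their counts part in the libraries of the DBA background, whose own sequence was not examined, and not in those of the B10 background. On GRCm38, *Rnaset2a* (ENSMUSG00000095687) spans chr17:8115445-8148097 on the minus strand and *Rnaset2b* (ENSMUSG00000094724) chr17:6970634-7011299 on the plus strand. Their promoters are printed from RefSeq (GRCm38.p6, 250 bases before to 50 after a transcription start), to show how closely the copies match. RefSeq lists 2 starts for *Rnaset2a*, and the one that aligned best, chr17:8147738-8148037 on the minus strand, is set beside that of *Rnaset2b*, chr17:6978610-6978909 on the plus strand, both 5′ to 3′, with the base at which they differ in capitals.
Rnaset2a: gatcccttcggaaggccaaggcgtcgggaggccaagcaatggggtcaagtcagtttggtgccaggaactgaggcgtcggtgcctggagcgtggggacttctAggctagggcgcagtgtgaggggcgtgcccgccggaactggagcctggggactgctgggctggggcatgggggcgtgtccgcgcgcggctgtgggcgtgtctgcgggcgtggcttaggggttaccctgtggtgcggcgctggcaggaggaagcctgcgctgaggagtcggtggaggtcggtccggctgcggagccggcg
Rnaset2b: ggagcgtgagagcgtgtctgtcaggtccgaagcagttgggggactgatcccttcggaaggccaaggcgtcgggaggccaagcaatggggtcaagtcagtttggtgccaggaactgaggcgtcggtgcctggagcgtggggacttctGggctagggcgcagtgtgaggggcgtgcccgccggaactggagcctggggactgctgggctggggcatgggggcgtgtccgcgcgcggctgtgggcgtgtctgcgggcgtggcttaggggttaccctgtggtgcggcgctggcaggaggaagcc
The *Rnaset2a* sequence begins at base 46 of the *Rnaset2b* sequence, and 254 of the 255 aligned bases were identical, the exception being G147A (the base of *Rnaset2b* first, counted from the 5′ end of its sequence). In the GENCODE M21 annotation, 70.0% of the 90-base windows along the longest coding transcript of *Rnaset2a* also occurred in a transcript of *Rnaset2b*, and 70.3% the other way round. Over the last 500 bases, where 3′ reads start, the share was 76.6% for either copy. Cell Ranger counts a read for a gene only where it maps to that gene alone, so the counts of either copy rest on the remaining bases, and how many reads were lost to this cannot be read from the UMI counts.

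In healthy myogenic cells, *Rnaset2b* was at 64.3 CPM (61.8 to 66.8) in B10, whereas DBA had 0.631 CPM (0.380 to 0.985), from 2563 and 19 UMIs. In the dystrophic libraries it was at 32.1 CPM (30.4 to 33.9) in *mdx* and 0.430 CPM (0.241 to 0.709) in D2-*mdx*. Both libraries of the DBA background were thus close to 0 and both of the B10 background far above, by 102-fold in healthy and 74.8-fold in dystrophic cells. *Rnaset2a* was on in all 4 libraries, at 61.8 CPM (59.4 to 64.3) in B10 and 30.6 (28.9 to 32.4) in *mdx*, against 134 (129 to 138) for DBA and 63.4 (60.8 to 66.1) for D2-*mdx*, 2.16-fold and 2.07-fold higher on the DBA background. The counts of the copies thus ran in opposite directions between the backgrounds. Reads of all 4 libraries were aligned to mm10. Whether sequence differences of the DBA strain from this reference changed the counts of a copy, or of another gene, was not tested.

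Summed over both copies, the level was 126 CPM (123 to 130) in B10 and 134 (130 to 138) in DBA, a log2 ratio of 0.09 (0.03 to 0.15). It was 62.8 CPM (60.3 to 65.3) in *mdx* and 63.8 (61.2 to 66.5) in D2-*mdx*, a log2 ratio of 0.02 (-0.06 to 0.11). Over all myogenic cells the interval of the sum thus reached no further than 0.15 on the log2 scale, whereas each copy alone differed by more than 2-fold. Within single clusters the sum ranged further, up to 0.60 (0.25 to 0.96) between DBA and B10 in the *Dlk1* and *Hhip* cluster of the MuSC-like cells, and it was -0.32 (-0.66 to 0.03) in healthy and 0.28 (0.02 to 0.54) in dystrophic pericyte-like cells. *Rnaset2a* made up 49.0% (47.6 to 50.4) of the summed UMIs in B10 and 48.8% (46.8 to 50.7) in *mdx*, against 99.5% (99.3 to 99.7) for DBA and 99.3% (98.9 to 99.6) for D2-*mdx*. Outside the myogenic cells the split was alike in pericyte-like cells, with shares of 52.9% (41.9 to 63.7), 47.6% (40.3 to 55.0), 99.5% (98.05 to 99.93) and 99.7% (98.39 to 99.99), respectively. In non-myelinating glia-like cells, no *Rnaset2b* UMI was counted beside 61 UMIs of *Rnaset2a* in DBA or 127 in D2-*mdx*, while *mdx* had 97 UMIs of *Rnaset2a* and 89 of *Rnaset2b*.

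**Figure D1:**
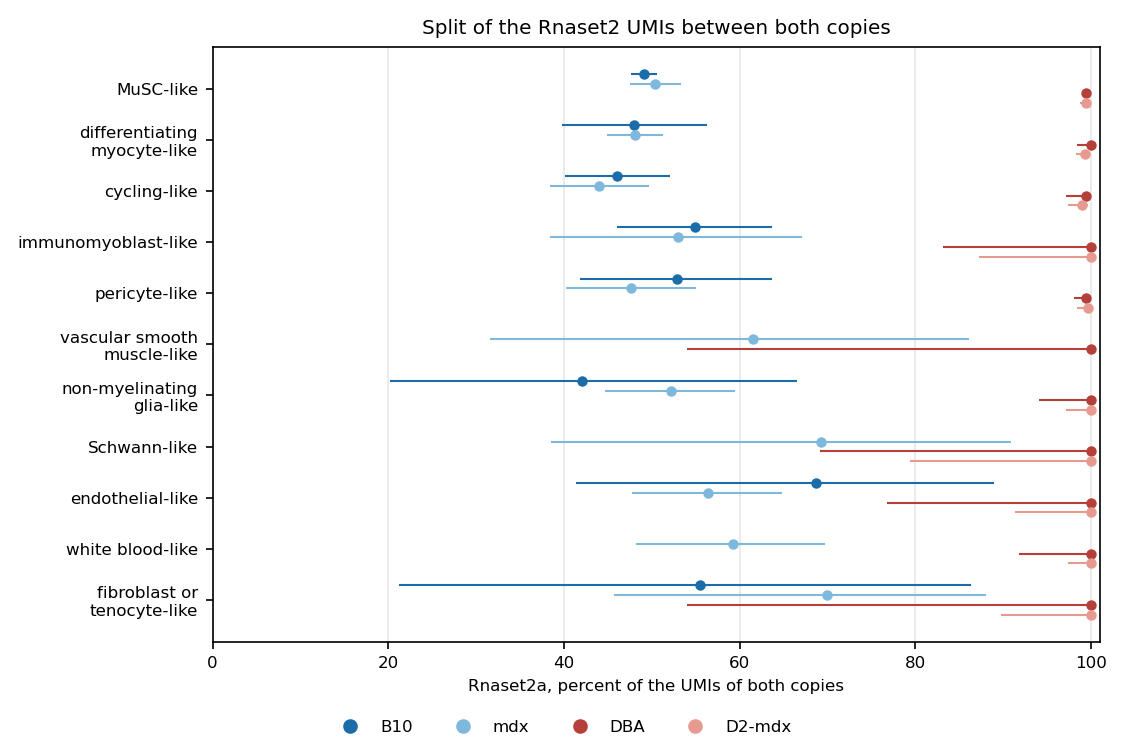
Share of the *Rnaset2* UMIs counted for *Rnaset2a* (x axis, percent of the UMIs of both copies) in each cluster (y axis) and library (colour), with exact binomial 95% intervals, where at least 5 UMIs were counted. The MuSC-like cells of B10 and *mdx* lie at 49.1% and 50.4%, those of DBA and D2-*mdx* at 99.5% and 99.4%. The other clusters lie in the same order by background, but intervals of the backgrounds overlap in some clusters with few UMIs, such as vascular smooth muscle-like and Schwann-like cells.

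*6330403K07Rik* (ENSMUSG00000018451, chr11:71031941-71033513, minus strand) was counted at 123 CPM (119 to 127) for DBA and 112 (108 to 115) for D2-*mdx*. In B10 and *mdx* it stood at 0.276 (0.138 to 0.493) and 0.396 CPM (0.227 to 0.644), from 11 and 16 UMIs over all myogenic cells. The healthy libraries differed by 447-fold and the dystrophic ones by 282-fold. The dystrophic log2 ratio of 8.14 became 6.86 over all kept cells, 6.54 over all barcodes, 6.33 with a pseudocount of 1 CPM and 9.63 within MuSC-like cells, and the healthy one of 8.80 became 6.60 with the pseudocount. After every cell was thinned to 3000 UMIs, 29.0% (27.3 to 30.7) of myogenic cells in DBA and 29.5% (28.2 to 30.9) in D2-*mdx* had a UMI, against 0.114% (0.0371 to 0.266) in B10 and 0.0830% (0.0226 to 0.212) in *mdx*. Without thinning the shares were 62.8% in DBA, 50.05% in D2-*mdx*, 0.158% in B10 and 0.332% in *mdx*, at median depths of 10294.5, 6474.5, 8424 and 6847.5 UMIs per cell. Thinning left out 39 cells of B10 and none of the other libraries.

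The level of *6330403K07Rik* on the DBA background varied among cell types. In DBA it was 129 CPM (125 to 133) in MuSC-like, 55.9 (42.9 to 71.7) in cycling, 94.3 (86.4 to 103) in pericyte-like and 157 (121 to 200) in non-myelinating glia-like cells. The highest value in DBA was in Schwann-like cells, at 353 CPM (251 to 482), although from 11 cells. D2-*mdx* gave 161 CPM (155 to 167) in MuSC-like, 21.5 (18.2 to 25.1) in cycling, 110 (103 to 118) in pericyte-like, 134 (118 to 152) in glia-like and 196 (151 to 249) in Schwann-like cells. Cycling cells were thus the low end and Schwann-like cells the high end of these in both libraries, and white blood-like cells were low too, at 44.2 (24.2 to 74.2) and 37.0 CPM (28.8 to 46.7).

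On the B10 background a low level of *6330403K07Rik* was seen outside the myogenic cells. In *mdx*, glia-like cells had 23 UMIs in 357 cells, or 8.47 CPM (5.37 to 12.7), and Schwann-like cells 8 UMIs in 79 cells, or 19.2 CPM (8.28 to 37.8). Both intervals lay above that of the myogenic cells of the same library. In B10 these cell types held 1 UMI in 23 cells and 2 UMIs in 14 cells, too few to place. No UMI was found in 252 endothelial-like or 110 white blood-like cells of *mdx*, for which the limit of 3 counts allows up to 1.19% and 2.73% of cells with a UMI.

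**Figure D2:**
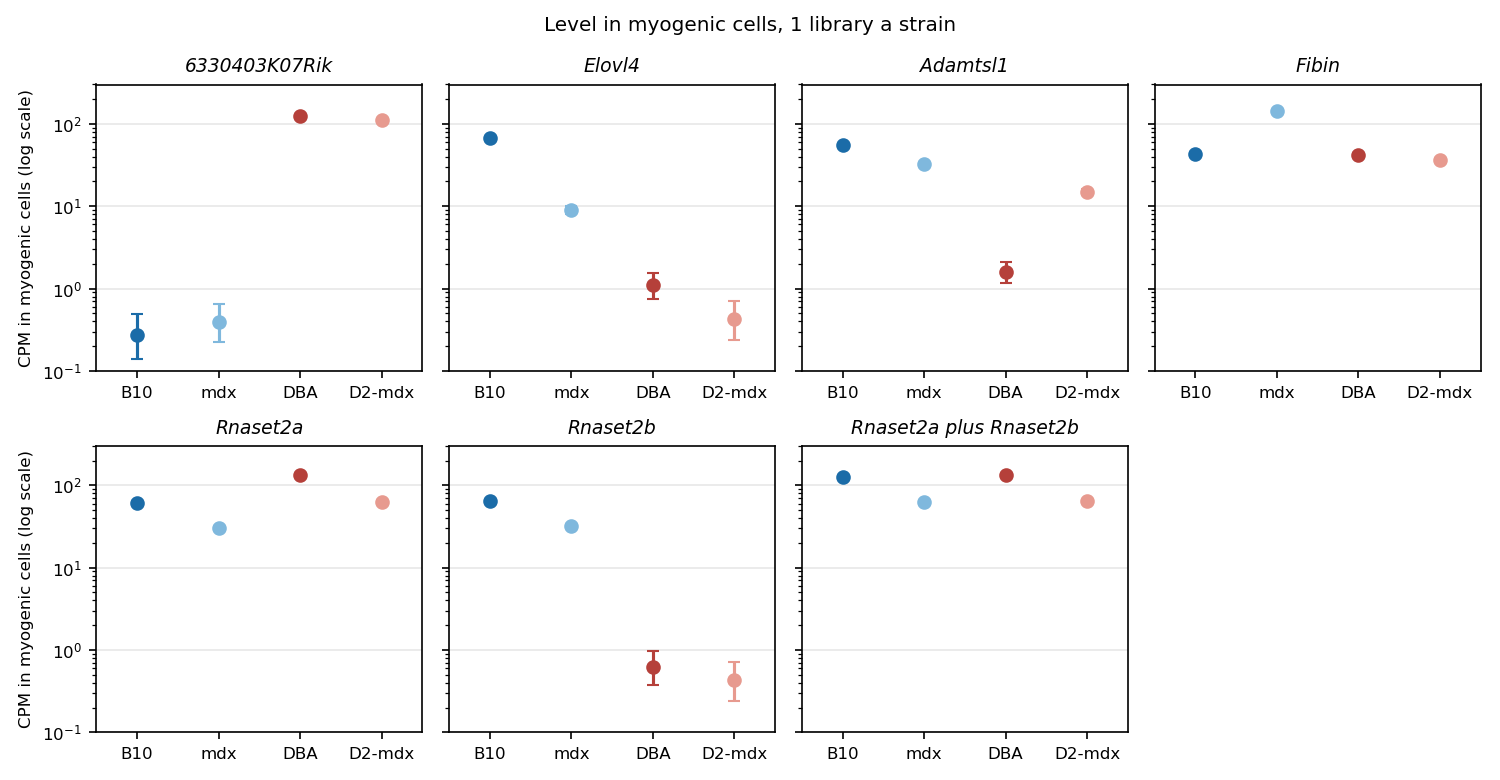
Level of each gene, and of both *Rnaset2* copies summed, in the myogenic cells of the 4 libraries (y axis, CPM on a log scale), with exact Poisson 95% intervals, which are smaller than the points where not visible. *6330403K07Rik* and *Rnaset2b* part the libraries by background, *Fibin* stands apart only in *mdx* at 144 CPM, and the *Rnaset2* sum divides healthy from dystrophic libraries.

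*Elovl4* (ENSMUSG00000032262, chr9:83778692-83806277, minus strand) was at 66.5 CPM (64.0 to 69.1) in B10 and 9.04 (8.14 to 10.0) in *mdx*. DBA had 1.10 CPM (0.754 to 1.54) from 33 UMIs and D2-*mdx* 0.430 (0.241 to 0.709) from 15 UMIs. The 4 libraries were in this descending order with no overlap of neighbouring intervals, and the background ratios were 60.7-fold lower in DBA and 21.03-fold lower in D2-*mdx*. A UMI was found in 13.0% (12.1 to 14.1) of thinned myogenic cells in B10 and 3.09% (2.62 to 3.62) in *mdx*, against 0.370% (0.178 to 0.680) for DBA and 0.167% (0.0673 to 0.344) for D2-*mdx*, and in 28.7%, 5.37%, 1.07% and 0.359% without thinning.

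Outside the myogenic cells *Elovl4* was at 0 to 9.64 CPM, the highest value from 2 UMIs in 23 glia-like cells of B10. Non-myelinating glia-like cells of *mdx* had 15 UMIs in 357 cells, or 5.52 CPM (3.09 to 9.11), an interval that overlapped that of the myogenic cells of the same library. No UMI was found in Schwann-like or endothelial-like cells of any library. Pericyte-like cells held a UMI in 0 of 96 thinned cells of B10 and 0 of 610 of *mdx*, for which 3 counts allow shares of up to 3.125% and 0.492%, and over all their UMIs the level was 1.87 CPM (0.226 to 6.75) in B10. Within the myogenic cells of B10 it was 66.7 CPM (64.1 to 69.4) in MuSC-like, 103 (87.5 to 121) in cycling and 24.9 (15.8 to 37.4) in differentiating myocyte-like cells. In *mdx* the cycling cells, at 3.34 CPM (1.91 to 5.42), were below the MuSC-like cells, at 15.7 (14.0 to 17.6). Cycling cells thus lay above MuSC-like cells in B10 and below them in *mdx*. However, the cycling group of B10 changed in size with the clustering. It held 106 cells here, 36 in the clustering of all kept cells and 14 without integration.

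*Adamtsl1* (ENSMUSG00000066113) lies on chr4:85514172-86428385, plus strand, and overlaps *Sh3gl2* on the same strand, whose reads could be hard to tell apart. Its level was 54.8 CPM (52.5 to 57.1) in B10 and 32.5 (30.8 to 34.3) in *mdx*, against 1.59 (1.17 to 2.11) for DBA and 14.9 (13.6 to 16.2) for D2-*mdx*. DBA alone was near 0, 34.4-fold below B10, while D2-*mdx* was 2.19-fold below *mdx*. The healthy log2 ratio of -5.10 became -4.21 over all kept cells, -3.76 over all barcodes and -4.43 with a pseudocount of 1 CPM. The share of thinned cells with a UMI was 13.6% (12.6 to 14.6), 10.1% (9.27 to 11.0), 0.444% (0.230 to 0.775) and 5.16% (4.51 to 5.88), in the order B10, *mdx*, DBA and D2-*mdx*.

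Vascular smooth muscle-like cells showed no such order. *Adamtsl1* was at 159 CPM (94.5 to 252) in B10 and 99.4 (75.9 to 128) in *mdx*, against 165 (115 to 229) for DBA and 162 (103 to 243) for D2-*mdx*, from 7, 56, 14 and 17 cells. Every pair of these intervals overlapped, also that of DBA, whose myogenic cells were at 1.59 CPM. Glia-like cells were at 96.4 CPM (58.9 to 149) in B10 and 113 (101 to 127) in *mdx*, against 24.5 (11.7 to 45.1) for DBA and 141 (124 to 159) for D2-*mdx*, with the lowest value again in DBA, from 10 UMIs in 31 cells. Pericyte-like cells were low in every library, at 1.77 to 7.74 CPM. Whether the background ratio differs between cell types was not tested, as each strain had 1 library.

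*Fibin* (ENSMUSG00000074971, chr2:110360917-110363183, minus strand) went against its choice as a gene set by the background. It was at 43.1 CPM (41.1 to 45.2) in B10 and 42.1 (39.8 to 44.4) in DBA, with a log2 ratio of -0.04 (-0.14 to 0.07). By the size of this ratio it took place 7196 among the 8344 genes that reached 10 CPM in either healthy library. Over all myogenic cells its levels parted between the dystrophic libraries, at 144 CPM (140 to 147) in *mdx* against 35.9 (34.0 to 38.0) in D2-*mdx*, or 3.997-fold. Within cycling cells the healthy libraries did part, with a log2 ratio of -1.24 (-1.98 to -0.54), from 106 cells in B10 and 71 in DBA. The cycling group of B10 was smaller in other clusterings.

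*Fibin* was highest in *mdx* in MuSC-like, differentiating myocyte-like, glia-like and fibroblast or tenocyte-like cells, but not in pericyte-like cells, which were at 12.2 CPM (6.47 to 20.8) in B10, 6.95 (4.84 to 9.66) in *mdx*, 12.8 (9.98 to 16.1) for DBA and 4.85 (3.42 to 6.69) for D2-*mdx*. In MuSC-like cells the levels were 43.6 CPM (41.5 to 45.8) in B10 and 142 (137 to 148) in *mdx*, against 43.4 (41.0 to 46.0) for DBA and 48.2 (45.0 to 51.5) for D2-*mdx*. Among differentiating myocyte-like cells, which also scored high on DMD-enriched markers, the level was 24.9 CPM (15.8 to 37.4) in B10 and 173 (166 to 180) in *mdx*. Cycling cells did not separate these libraries, at 48.9 (38.3 to 61.6) and 53.6 CPM (47.2 to 60.6). Glia-like cells were higher than myogenic cells in every library, at 125 CPM (81.9 to 184), 511 (484 to 539), 267 (219 to 322) and 252 (230 to 276), again highest in *mdx*. Fibroblast or tenocyte-like cells, at 142 CPM (67.9 to 261) in B10 and 420 (352 to 496) in *mdx*, against 155 (87.0 to 256) for DBA and 188 (156 to 225) for D2-*mdx*, were highest in *mdx* too, from 6, 29, 7 and 49 cells.

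**Figure D3:**
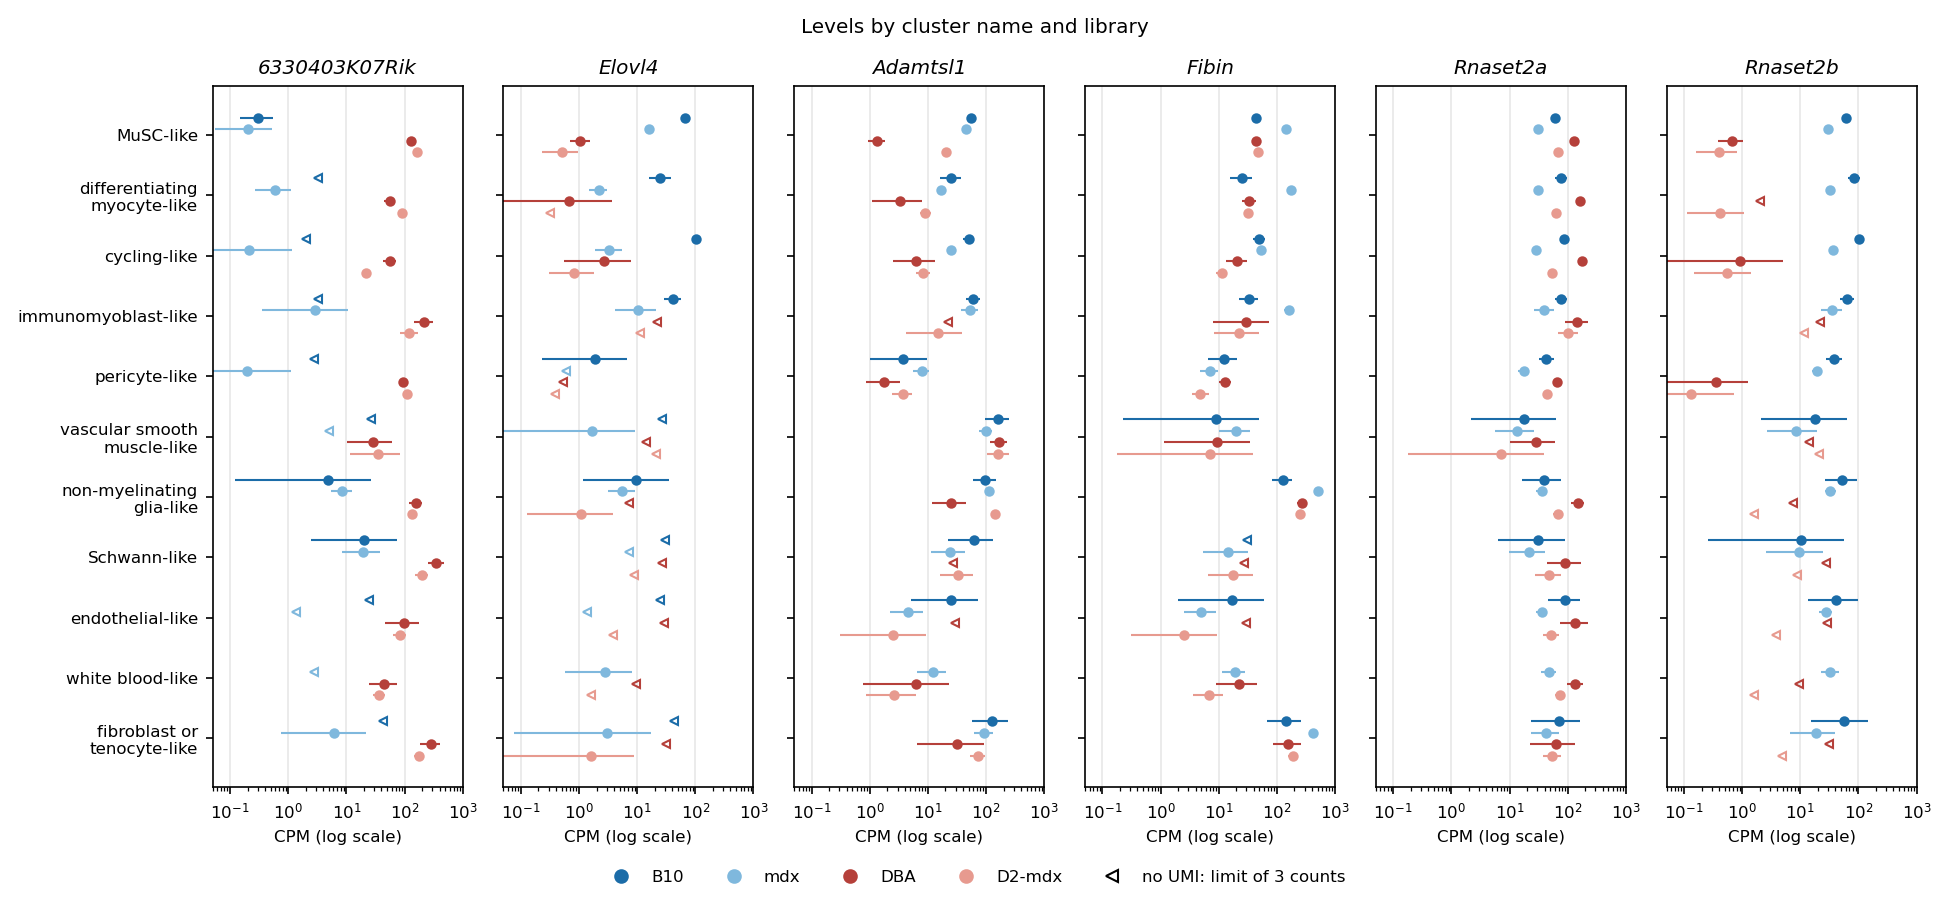
Level of the 6 genes (x axis, CPM on a log scale) in each cluster (y axis) and library (colour), with exact Poisson 95% intervals, for clusters of at least 5 cells in a library. Open triangles mark the level that 3 counts would give where no UMI was found. *6330403K07Rik* parts by background in nearly every cluster, *Elovl4* is highest in the myogenic clusters of B10, and *Adamtsl1* has similar levels in the vascular smooth muscle-like cells of all libraries.

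Over the healthy myogenic cells, 5 of the 6 genes were past a 2-fold ratio between DBA and B10, 2 higher (*6330403K07Rik*, *Rnaset2a*) and 3 lower (*Elovl4*, *Adamtsl1*, *Rnaset2b*) in DBA, where 3.55% of the 8344 genes reaching 10 CPM were, 1.76% higher and 1.79% lower. Ordered by the size of the ratio among these genes, *6330403K07Rik* was at place 4, *Rnaset2b* at 12, *Elovl4* at 15, *Adamtsl1* at 19 and *Rnaset2a* at 240. Between D2-*mdx* and *mdx*, all 6 were past 2-fold, 2 higher and 4 lower, beside 3.55% of 8179 genes, 2.01% higher and 1.54% lower. *Elovl4* was under 10 CPM in both of these libraries, so 5 of the 6 passed the filter there. The rule chose the genes on this contrast, so nothing is read from these counts. Across all genes with at least 10 CPM in any of the 4 libraries, 187 of 8812 were past 2-fold in the same direction in both comparisons, which is 48.4% of the 386 past it in healthy and 53.3% of the 351 past it in dystrophic cells. These comparisons share no library. The median log2 ratio over all tested genes was 0.01 in healthy and -0.02 in dystrophic cells, and that of the 6 members -2.57 and -1.56.

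**Figure D4:**
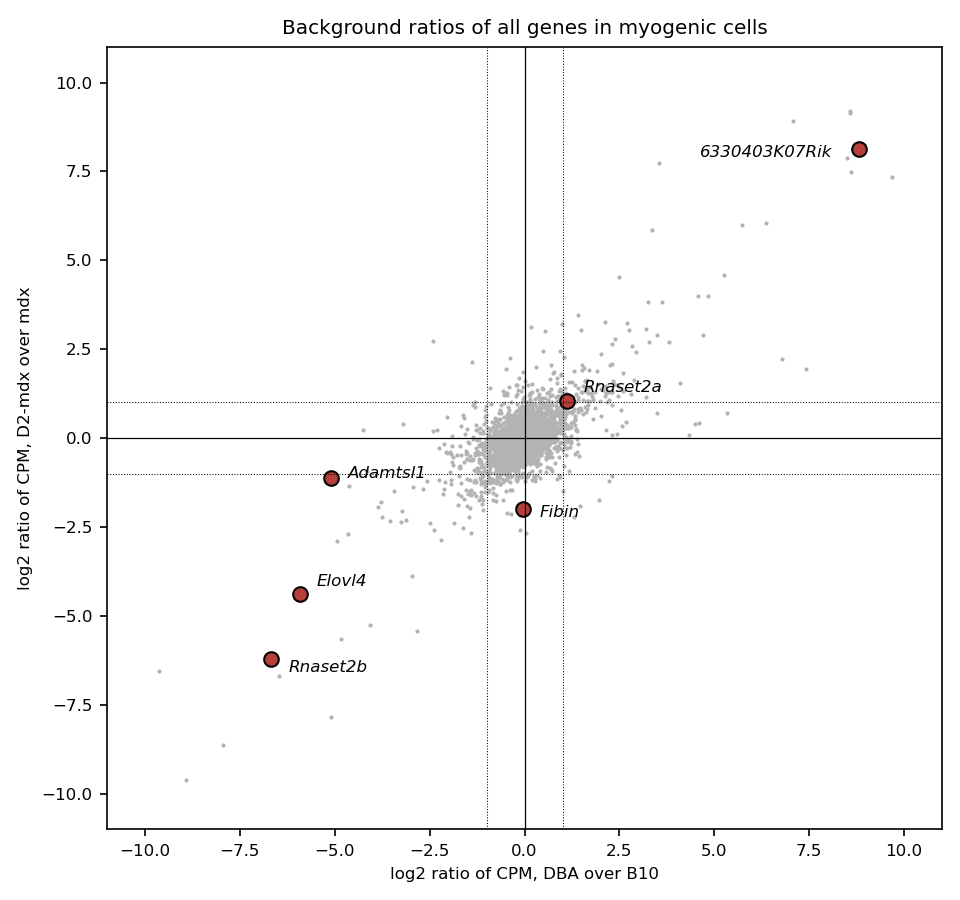
Log2 ratio of CPM in myogenic cells, DBA over B10 (x axis) against D2-*mdx* over *mdx* (y axis), for the 8812 genes that reached 10 CPM in some library (grey) and the 6 members (red), with dotted lines at 2-fold. *6330403K07Rik* lies at the upper right at 8.80 and 8.14, *Rnaset2b* and *Elovl4* at the lower left, *Adamtsl1* at -5.10 and -1.13, and *Fibin* on the vertical axis at -2.00.

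The rule did not use the comparisons of dystrophic with healthy cells, but it used the counts of the same libraries. Between *mdx* and B10, 3 of the 6 genes were past 2-fold, 1 higher (*Fibin*) and 2 lower (*Elovl4*, *Rnaset2a*), beside 9.89% of 8477 genes, 4.70% higher and 5.19% lower. *6330403K07Rik* was below 10 CPM in both libraries, leaving 5 genes that passed the filter. Between D2-*mdx* and DBA, 3 were past 2-fold, 1 higher (*Adamtsl1*) and 2 lower (*Elovl4*, *Rnaset2a*), beside 11.6% of 8501 genes, 5.81% higher and 5.82% lower, and *Elovl4* and *Rnaset2b* did not pass the filter. The median log2 ratio of the 6 was -0.88 in *mdx* and -0.39 in D2-*mdx*, against -0.03 and -0.07 over all tested genes. Each of these comparisons shares its libraries with the background comparisons. A library that stands out in those also shifts the ratios here. The choice of the genes thus bears on these counts too, and nothing is read from them.

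The summed *Rnaset2* level was lower in dystrophic cells on both backgrounds and by a like amount, with log2 ratios of -1.01 (-1.08 to -0.94) in *mdx* and -1.07 (-1.15 to -0.997) in D2-*mdx*. On the B10 background both copies took part, *Rnaset2a* with -1.01 (-1.11 to -0.91) and *Rnaset2b* with -0.999 (-1.10 to -0.90), the latter just short of 2-fold. The sum was also lower within MuSC-like cells, with -1.002 (-1.10 to -0.91) and -0.95 (-1.05 to -0.86), and within differentiating myocyte-like cells, with -1.36 (-1.61 to -1.10) and -1.36 (-1.57 to -1.13). In cycling cells the ratios were -1.52 (-1.76 to -1.28) and -1.70 (-1.95 to -1.45). The sum was thus lower within each of these clusters, while their shares of the myogenic cells differed between the libraries. Pericyte-like cells, which are not myogenic, were lower too, with -1.13 (-1.51 to -0.75) on the B10 and -0.53 (-0.75 to -0.32) on the DBA background.

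*Elovl4* was lower in dystrophic cells, with log2 ratios of -2.88 (-3.04 to -2.72) in *mdx* and -1.35 (-2.34 to -0.43) in D2-*mdx*, the latter from 15 and 33 UMIs. Within MuSC-like cells the ratio was -2.09 (-2.26 to -1.91) on the B10 background, and within cycling cells -4.95 (-5.80 to -4.21), from 106 cells in B10 and 407 in *mdx*. The cycling group of B10 was smaller in other clusterings, so this ratio depends on which cells were called cycling. On the DBA background the MuSC-like ratio of -1.06 (-2.32 to 0.06) included 0. The disease ratio of *6330403K07Rik* on the DBA background depended on the cells, with -0.14 (-0.21 to -0.08) over all myogenic, 0.32 (0.24 to 0.39) within MuSC-like, 0.68 (0.35 to 1.02) within differentiating myocyte-like and -1.38 (-1.81 to -0.93) within cycling cells.

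Over all myogenic cells, the disease ratios of *Adamtsl1* and *Fibin* had opposite signs on the backgrounds, a difference that was not tested. By arithmetic, it equals the difference between the background ratios on which the genes were chosen. *Adamtsl1* had a log2 ratio of -0.75 (-0.85 to -0.65) in *mdx* and 3.22 (2.79 to 3.68) in D2-*mdx*. Its levels in MuSC-like cells were 55.6 CPM in B10 and 45.6 in *mdx*, against 1.31 in DBA and 20.8 in D2-*mdx*, so the ratios there were -0.28 (-0.40 to -0.17) and 3.98 (3.49 to 4.52). Differentiating myocyte-like cells of D2-*mdx* were 2.69-fold higher than those of DBA, and for cycling cells the interval of -0.74 to 1.76 included 0. *Fibin* had a log2 ratio of 1.74 (1.66 to 1.82) in *mdx* and -0.23 (-0.34 to -0.11) in D2-*mdx*. Within MuSC-like cells the D2-*mdx* ratio was 0.15 (0.02 to 0.28), so the opposite sign of *Fibin* did not hold there, while the *mdx* ratio of 1.71 (1.62 to 1.80) did.

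**Figure D5:**
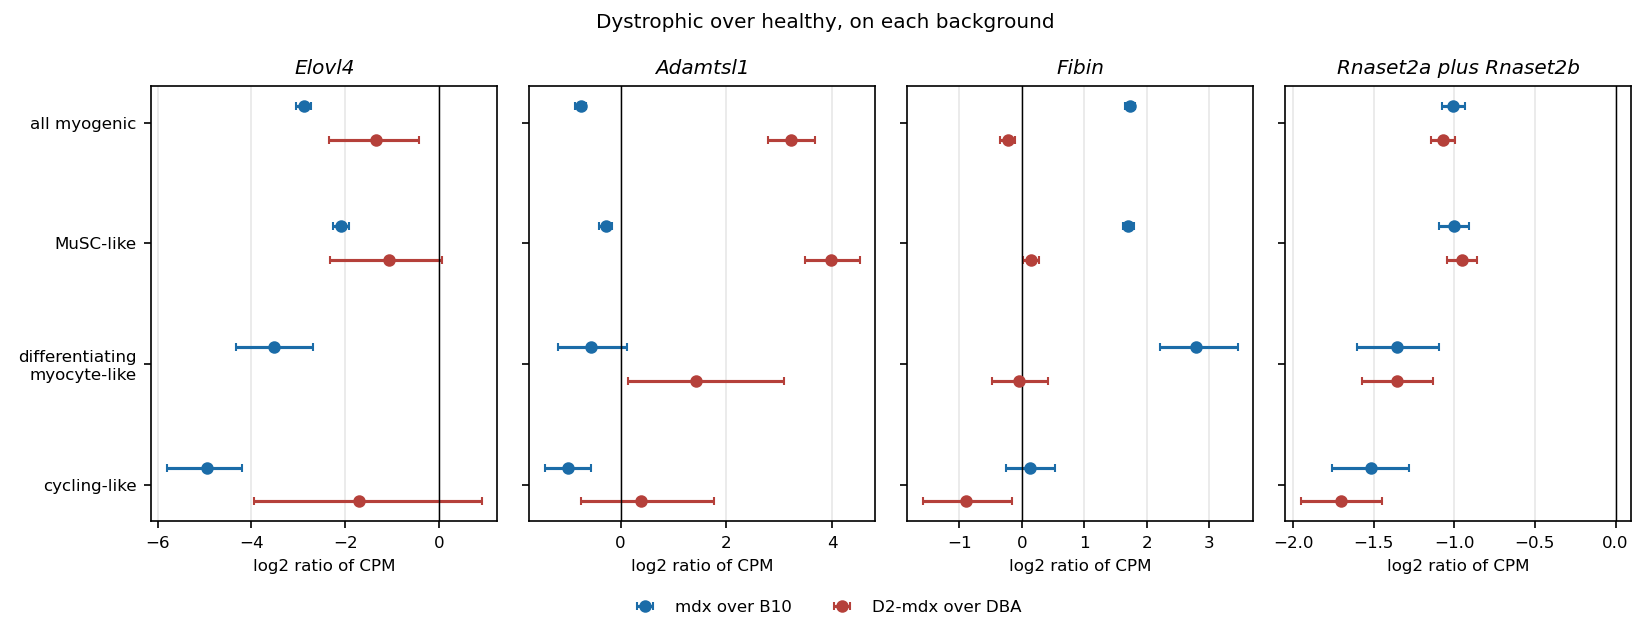
Log2 ratio of CPM, *mdx* over B10 (blue) and D2-*mdx* over DBA (red), for *Elovl4*, *Adamtsl1*, *Fibin* and the *Rnaset2* sum (panels), in all myogenic cells and in 3 of their cluster groups (y axis), with exact 95% intervals, and no point where either library had no UMI. The *Rnaset2* sum lies left of 0 on both backgrounds in every row, and *Adamtsl1* lies on either side of 0, at -0.75 and 3.22 over all myogenic cells.

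Other genes of the members' pathways are set beside all genes, of which 3.55% were past 2-fold in either background comparison. Levels of the list genes are over all myogenic cells, whose makeup differed between the libraries, and were not compared within clusters. Of 18 genes of fatty acid elongation and desaturation, a list wider than very long chains, 13 had at least 10 CPM in healthy cells. Besides *Elovl4*, the desaturase gene *Scd2* was past 2-fold, at 159 CPM in DBA and 77.5 in B10, with a log2 ratio of 1.04 (0.97 to 1.11). The list's median log2 ratio was 0.26, against 0.01 over all genes. In dystrophic cells 1 of the 12 measured was past 2-fold, *Scd1*, at 25.2 CPM in D2-*mdx* and 12.6 in *mdx* with 1.003 (0.84 to 1.16). Of the other elongases, *Elovl6* was just short of 2-fold, at 55.8 CPM in DBA with a log2 ratio over B10 of 0.996 (0.89 to 1.11), and *Elovl5* had 0.70 (0.51 to 0.89). *Elovl1*, which also acts on very long chains, was at 20.2 CPM in B10 and 19.4 in DBA, and its log2 ratio of -0.06 (-0.21 to 0.10) included 0. Of the 13 genes measured between *mdx* and B10, 2 were past 2-fold higher and 2 lower, *Elovl4* among the latter, beside 9.89% of all genes. Of the 12 between D2-*mdx* and DBA, 1 was higher and 1 lower, beside 11.6%. With disease, *Hacd1*, a dehydratase of the elongation cycle known from muscle, was higher on both backgrounds, from 27.3 to 88.1 CPM in *mdx* and from 36.7 to 98.2 in D2-*mdx*, and *Scd1* was lower on both, with log2 ratios of -1.79 and -1.25. *Hacd4*, of the same family as *Hacd1*, was also higher on both. It was at 1.25 CPM in B10 against 10.9 in *mdx*, or 3.12 (2.70 to 3.58) on the log2 scale, and at 0.697 in DBA against 9.63 in D2-*mdx*, or 3.79 (3.15 to 4.50), where neither library reached 10 CPM.

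Among 21 ADAMTS-like and microfibril genes, 10 had at least 10 CPM in healthy and 11 in dystrophic cells. Of the genes that reached 10 CPM, *Adamtsl1* was the only one past 2-fold between backgrounds in either. Other genes of the list were past 2-fold at levels below 10 CPM. Over all genes, 3.55% were past 2-fold in either background comparison. The median log2 ratios of the list of *Adamtsl1* were -0.17 and 0.16. In *mdx*, *Thsd4* (ADAMTS-like 6) and *Ltbp4*, which binds latent TGF-β in the matrix, were past 2-fold lower than in B10, with -1.02 (-1.13 to -0.91) and -1.43 (-1.48 to -1.38). They were the 2 of 11 measured genes past 2-fold there, beside 9.89% of all genes. Their log2 ratios in D2-*mdx* over DBA were -0.83 and -0.62. Of 16 endolysosomal nucleases and RNA sensors, 6 were measured in healthy cells. *Rnase4*, a secreted ribonuclease of another family, was past 2-fold beside the *Rnaset2* copies, at 57.0 CPM in DBA and 19.03 in B10 with a log2 ratio of 1.58 (1.46 to 1.71). It was at 55.5 CPM in D2-*mdx* and 30.4 in *mdx*, short of 2-fold, and *Pld3* and *Unc93b1* were within 0.25 of 0 on the log2 scale in both background comparisons.

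The genes next to the members on the chromosome were compared in the same way. The 3 nearest genes on each side with at least 10 CPM gave 33 neighbours in each background comparison. Of these, 4 were past 2-fold in healthy and 6 in dystrophic cells, beside 3.55% of all genes in either comparison. Both *Rnaset2* copies are in each of these counts. As members chosen on this contrast they raise the counts, and nothing is read from them. No neighbour of *6330403K07Rik* or *Fibin* was past 2-fold in either comparison. *Mis12*, the nearest measured gene to *6330403K07Rik* at 4.57 kb, had log2 ratios of 0.03 (-0.15 to 0.21) in healthy and -0.04 (-0.22 to 0.14) in dystrophic cells. *Derl2*, at 12.1 kb, had 0.29 (0.17 to 0.42) in healthy cells. The largest ratio among the neighbours of *6330403K07Rik* in healthy cells was 0.75 (0.52 to 0.98), for *Wscd1* at 716 kb. *Sft2d1*, 163 kb from *Rnaset2a*, was lower on the DBA background, with log2 ratios of -1.46 (-1.63 to -1.28) and -2.22 (-2.47 to -1.98). *Fgfr1op*, the nearest measured gene to *Rnaset2a* at 17.4 kb, had -0.17 (-0.35 to 0.01) and 0.10 (-0.09 to 0.30). *Fndc1*, 288 kb from *Rnaset2a*, was higher on the DBA background but short of 2-fold, with 0.85 (0.75 to 0.94) and 0.79 (0.71 to 0.87). *Ccdc171*, 1650 kb from *Adamtsl1*, had -1.03 (-1.29 to -0.77) and -1.30 (-1.55 to -1.05), and *Rraga*, the nearest measured gene at 147 kb, -0.08 (-0.16 to 0.00) and 0.10 (0.03 to 0.18). Around *Elovl4*, *Hmgn3* at 632 kb and *Tent5a* at 1514 kb were past 2-fold lower in D2-*mdx* than in *mdx*, with -1.27 (-1.37 to -1.17) and -2.17 (-2.53 to -1.83). In healthy cells *Hmgn3* was lower on the DBA background too, with -0.76 (-0.90 to -0.63). *Bckdhb*, the nearest measured gene at 119 kb, was higher on the DBA background, with 0.66 (0.48 to 0.85) in healthy and 0.83 (0.64 to 1.02) in dystrophic cells. *Lca5*, at 338 kb, had 0.06 (-0.16 to 0.28) and -0.08 (-0.29 to 0.13).

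The genes with the pattern most like each member were ranked by Pearson's r of log2(CPM + 1) over 16 groups of at least 50 cells, each a cell type in a library, among 12005 genes. The groups share libraries and thus depth, so these are descriptions. B10 and DBA gave only myogenic and pericyte-like groups, and the other cell types came from the dystrophic libraries. For *6330403K07Rik* they were *Gm5900* (r = 0.948), *Hddc3* (0.923), *Zfp949* (0.919), *Glo1* (0.912) and *Sfi1* (0.905). *Elovl4* was followed by *Glrb* (0.897), *Angptl1* (0.828), *Dbp* (0.791), *Hsp90aa1* (0.783) and *Galnt11* (0.782). For *Adamtsl1* they were *Dnaic2* (0.872), *Ggact* (0.805), *Gfra2* (0.802), *Rxrg* (0.782) and *Cspg4* (0.779), and for *Fibin* *Btc* (0.953), *Dpyd* (0.935), *Ptprz1* (0.916), *Plekha5* (0.916) and *Bcat1* (0.892). *Rnaset2a* had *Gm26853* (0.853), *Stab2* (0.839), *Lipt2* (0.830), *Igf1* (0.816) and *Gm10073* (0.814). For *Rnaset2b* the closest were *Trim12a* (0.975), *Rpl29* (0.970), *4930481A15Rik* (0.944), *Gm26782* (0.908) and *Tceanc2* (0.892). *Rpl29*, a ribosomal protein gene, was at 1560 CPM in B10 and 2050 in *mdx*, against 199 in DBA and 138 in D2-*mdx* in myogenic cells. Among the members themselves, *6330403K07Rik* and *Rnaset2b* were the most unlike, with r = -0.907, and *Adamtsl1* and *Fibin* the most alike, with 0.738. The members were chosen on the background contrast, so an r between them follows in part from that choice.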

How the data were processed

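The deposited files of the 4 libraries hold whole-number UMI counts per gene and barcode without normalization, which the authors made with Cell Ranger 3.0.1 on mm10. Barcodes with 1000 to 5000 detected genes and no more than 8% mitochondrial UMIs were taken as cells. Scrublet (scanpy 1.11.5) gave a doublet score per cell, and the highest-scoring cells removed up to the expected number, which was 2.70% to 5.34% of cells. Cells were integrated by CCA and clustered in Seurat 5.3.0 on 2000 features without the members (30 dimensions, resolution 0.1, then 0.2 for myogenic cells), and named from marker genes. UMIs were summed per library and cluster and given as CPM of all UMIs of those cells. Ratios carry exact binomial intervals of the split of the UMIs between both libraries, levels exact Poisson and shares of cells exact Clopper-Pearson intervals, and a share of 0 is given with the limit that 3 counts of the total set. Ratios within a cell type needed 50 cells in each library. The computation recovered the folds of counts simulated from these totals. The simulation held counting error only, as the intervals do, so it does not bear on variation between mice or libraries. Positions are from GENCODE M21 on GRCm38, which held 27645 of the 27998 gene IDs, and the promoter sequences from RefSeq, which listed none for *Adamtsl1* in the table used here.

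The members and gene lists were chosen with earlier results of these data known. The genes named are the members, the 5 genes most like each, their neighbours, and up to 4 genes per pathway list past 2-fold. Genes short of 2-fold (*Elovl1*, *Elovl5*, *Elovl6*, *Pld3*, *Unc93b1*), the nearest neighbours and the disease values of list genes were added after their values were seen. *Rpl29* and *Gfra2* were given in full for the same reason. Alternatives covered the cell filters, doublets, clustering, library scaling (edgeR 4.0.16, DESeq2 1.42.0), the CPM minimum and the thinning depth.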

Additional observations from a re-analysis of the deposited data

Results flagged for a closer look

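For *Adamtsl1* and *Fibin*, the dystrophic library lay on opposite sides of its healthy counterpart on the backgrounds, over all myogenic cells. Each interval left out 0, but the intervals cover counting error only, and the libraries also differed in age. *Adamtsl1* had a log2 ratio of -0.75 in *mdx* over B10 and of 3.22 in D2-*mdx* over DBA. *Fibin* had 1.74 and -0.23, and the latter sign did not hold within MuSC-like cells, where it was 0.15. In pericyte-like cells the signs were the same on both backgrounds, with 1.05 on both for *Adamtsl1*, each with an interval that included 0, and -0.81 (-1.76 to 0.24) and -1.40 (-2.01 to -0.80) for *Fibin*. Over all myogenic cells, the disease ratio on the DBA background minus that on B10 was 3.97 for *Adamtsl1* and -1.96 for *Fibin*. By arithmetic, this equals the difference between the background ratios on which the genes were chosen. It is therefore no separate result. With 1 library per strain, the difference of neither gene was tested.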

How the results depend on the processing

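The 28 log2 ratios of the members and of the *Rnaset2* sum were recomputed under 13 alternatives each, and none that was past 2-fold changed direction. Of the 19 past 2-fold, 12 stayed past it under each alternative run. The other 7 had a smallest size of -0.86 for *Adamtsl1* and 0.89 for *Rnaset2a* in D2-*mdx* over *mdx*, -0.55 for *Elovl4*, -0.95 for *Rnaset2a* and -0.95 for the sum in D2-*mdx* over DBA, and -0.96 for *Rnaset2a* and -0.95 for the sum in *mdx* over B10. *Rnaset2b* in *mdx* over B10 passed 2-fold under some alternatives, at most at -1.06. *6330403K07Rik* in the same comparison, at 0.52 over myogenic cells from 16 and 11 UMIs, reached 1.49 over all kept cells. *Fibin* in D2-*mdx* over DBA ranged from -0.69 to 0.15 and *6330403K07Rik* from -0.62 to 0.32, and the sign of the latter also turned, to 0.10, with a mean over cells of depth-scaled counts. With a pseudocount of 1 CPM, the log2 ratios of genes near 0 shrank, to -2.81 for *Elovl4* and -4.54 for *Rnaset2b* in D2-*mdx* over *mdx*, and to -5.01 and -5.32 in DBA over B10. *Adamtsl1* in D2-*mdx* over DBA ranged from 1.95 to 3.98. With all cells that passed the filters, 5 members were past 2-fold between *mdx* and B10, not 3. With no minimum other than 1 UMI, the share of all genes past 2-fold was 15.9% in DBA over B10, 16.2% in D2-*mdx* over *mdx*, 24.7% in *mdx* over B10 and 26.3% in D2-*mdx* over DBA, and with at least 50 CPM it was 2.28% in D2-*mdx* over *mdx*. The cause was not tested. No paired analysis was possible because each strain had 1 library, so that the groups compared share fewer than 2 replicate numbers, and no library could be left out for the same reason. Depth limits the genes near 0, such as *Elovl4* on the DBA background.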
